A study of Mus musculus with 64 samples.

Results

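The tristetraprolin family genes Zfp36, Zfp36l1 and Zfp36l2 were followed across 4 genotypes of mouse CD4 T cells during restimulation through the T cell receptor. The members were the rows of the deposited time course table with these symbols, 3 of 23134 genes, and all 3 passed the filter on low values that left 16140 genes for testing. Levels were read from total RNA of CD4 T cells taken from the spleen of C57BL/6J mice, with 4 libraries in each of 16 genotype-by-time groups. Every group carried Cd4-Cre-ERt2, a Cre recombinase driven by the Cd4 gene that acts after exposure to tamoxifen, and deletion was induced with 4´-OH-tamoxifen, for which the labels' protocol makes no exception for WT cells. The WT group carried Cre alone, the DKO group added Rc3h1/2 fl/fl, the KO group added Zc3h12a fl/fl, and the TKO group carried both sets of floxed alleles. Cells first received anti-CD3/28 for 40 h in Th1 conditions and were rested for 2 days with IL-2, after which they were left alone (0 h) or restimulated with anti-CD3/28 for 1, 2 or 4 h. The labels used here give neither mouse age nor pooling, nor whether the 4 libraries per group are separate mice or cultures, so p-values cover only the spread among them, and that spread may be technical.

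Tristetraprolin (encoded by Zfp36) and its relatives bind AU-rich elements in the 3′ untranslated region of mRNAs through a tandem pair of CCCH zinc fingers, and recruit the CCR4-NOT deadenylase so that the mRNA is shortened and destroyed. In activated T cells they are known to restrain cytokine mRNAs, and Zfp36l1 and Zfp36l2 are also known for roles in lymphocyte quiescence and development. Zfp36 is a classic immediate early gene, and its own mRNA carries AU-rich elements through which the protein can limit its own message. The genes deleted in the knockouts encode other mRNA repressors with CCCH zinc fingers: Rc3h1 and Rc3h2 encode Roquin-1 and Roquin-2, and Zc3h12a encodes the endonuclease Regnase-1. The comparisons below ask how the family transcripts changed with restimulation and whether loss of these other repressors altered them.

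In the GENCODE M21 annotation of GRCm38, all 3 genes lie on the minus strand. Zfp36 (ENSMUSG00000044786) lies at chr7:28376784-28380253, Zfp36l1 (ENSMUSG00000021127) at chr12:80107754-80113013 and Zfp36l2 (ENSMUSG00000045817) at chr17:84183931-84187947. Each overlaps a gene annotated on the opposite strand, and the authors' strand setting is not given, so reads of overlapping genes could not be told apart. The partner of Zfp36l1, Gm26669, had a mean of 2.73 CPM (read counts scaled to a common library size) over the 64 libraries against 388 CPM for Zfp36l1. The partners of Zfp36 (Gm44710) and Zfp36l2 (AC132455.1) had no row under their Ensembl identifiers in the deposited table, so their levels could not be compared.

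The 3′ untranslated regions of the members hold the sequence their own proteins bind, so the sites are shown before the levels. The motif searched was the heptamer TATTTAT on the transcript strand, counted with overlaps, in the longest complete protein-coding transcript of each gene. Each member had 3 matches, within 774 bases of Zfp36, 1835 of Zfp36l1 and 1822 of Zfp36l2. In each member 1 of the 3 matches was flanked by T on both sides, which makes the nonamer TTATTTATT. Of 17130 genes of the table with such a region of at least 30 bases, 28.2% held 1 or more heptamers and 7.8% a nonamer. Among the 7489 genes with a region of 500 to 2000 bases, 26.3% held a heptamer, 6.9% a nonamer and 2.2% at least 3 heptamers. The nonamer of each gene, and for Zfp36 the 2 neighbouring heptamers of the same cluster, are given 5′ to 3′ on the transcript strand with the heptamer in capitals.
Zfp36, chr7:28376951-28376979, with the nonamer: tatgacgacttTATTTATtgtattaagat
Zfp36, chr7:28376966-28376994: agtgggcccttTATTTATgacgactttat
Zfp36, chr7:28376926-28376954: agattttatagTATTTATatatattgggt
Zfp36l1, chr12:80108167-80108195, with the nonamer: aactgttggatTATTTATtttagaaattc
Zfp36l2, chr17:84184914-84184942, with the nonamer: actatttaactTATTTATtatcttgtgaa
The Zfp36 matches began at bases 575, 590 and 615 of the region, while those of Zfp36l1 began at bases 1150, 1191 and 1405 and those of Zfp36l2 at bases 822, 870 and 1056. A match is a description of these letters and not a measured binding site.

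The 2 members with an entry in the RefSeq promoter table (build GRCm38.p6) differed in the short motifs of their upstream 250 bases. These windows are shown because Zfp36 and Zfp36l1 rose together at 1 h and then parted. Whether the motifs bear on these time courses was not tested. Searched on both strands were the EGR motif GCGNGGGCG, the ETS core CCGGAAG, the loose AP-1-like pattern TGANTCA, the cAMP response element TGACGTCA, the CArG box of the serum response element and the NF-kB site. Of the 27025 windows of the same length, 4.65% held the EGR motif, 7.05% the ETS core, 6.87% the AP-1-like pattern, 1.62% the cAMP response element, 1.4% a CArG box and 3.75% an NF-kB site. Matches are in capitals in the 2 sequences, which run 5′ to 3′ on the minus strand and end at the base before the RefSeq start.
Zfp36, chr7:28379229-28379478: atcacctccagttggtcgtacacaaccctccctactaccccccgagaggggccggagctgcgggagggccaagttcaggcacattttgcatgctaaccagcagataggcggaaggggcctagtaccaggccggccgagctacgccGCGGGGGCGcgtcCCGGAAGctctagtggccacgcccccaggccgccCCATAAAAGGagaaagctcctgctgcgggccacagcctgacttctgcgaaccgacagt
Zfp36l1, chr12:80113014-80113263: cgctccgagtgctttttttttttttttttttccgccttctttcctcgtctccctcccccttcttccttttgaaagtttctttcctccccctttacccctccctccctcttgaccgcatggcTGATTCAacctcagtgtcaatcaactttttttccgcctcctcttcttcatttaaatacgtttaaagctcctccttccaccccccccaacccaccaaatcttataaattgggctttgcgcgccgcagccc
In Zfp36 the EGR motif began 105 bases, the ETS core 92 bases and the CArG box 58 bases before the start. In Zfp36l1 a match to the AP-1 pattern, with T at its open middle position, began 129 bases before the start. The Zfp36 window lies inside the GENCODE span of the gene, whose annotation has a start further upstream.

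The libraries held 5369874 to 11666398 reads (median 7720327). Zfp36 rested on 39 to 3105 reads per library, Zfp36l1 on 283 to 9043 and Zfp36l2 on 312 to 2722, so that the lowest levels of Zfp36 carry the most counting noise. CD4 T cell markers (7 of 7 genes in the table) summed to 541 to 1440 CPM per library. Markers of other cells were far lower, with summed levels of 3.42 to 51.4 CPM for CD8 T cells (2 genes), 0 to 6.84 for B cells (4 genes), 1.55 to 20.2 for myeloid cells (4 of 5 genes), 0 to 1.42 for NK cells (3 genes) and 0 to 2.92 for erythroid cells (1 of 4 genes). As the check of the labels, Rc3h1 at 2 h held 131 to 179 CPM in WT, 76.7 to 87.1 in DKO and 78.0 to 93.0 in TKO libraries. At 1 and 4 h every DKO and TKO library also lay below every WT library. At 0 h the Rc3h1 ranges of DKO (53.5 to 72.0 CPM) and TKO libraries (59.1 to 79.1 CPM) overlapped that of WT (67.2 to 87.9 CPM). Zc3h12a at 1 h held 101 to 133 CPM in WT, 57.8 to 90.1 in KO and 53.8 to 63.7 in TKO libraries. At 2 h its KO libraries (44.6 to 61.6 CPM) overlapped WT (56.1 to 132 CPM), and its TKO libraries (43.9 to 54.1 CPM) lay below WT. At 0 h Zc3h12a was no lower in KO (9.25 to 17.1 CPM) or TKO (11.5 to 21.4 CPM) than in WT libraries (9.04 to 11.8 CPM), and Rc3h2 was not lower in DKO (mean 87.1 ± 7.52 CPM, SD, n = 4) or TKO (97.8 ± 13.0 CPM) than in WT libraries (67.2 ± 5.61 CPM). At 4 h the Zc3h12a range of the KO libraries (11.9 to 22.5 CPM) enclosed that of WT. The TKO libraries (13.9 to 16.9 CPM) overlapped WT at that time. In DKO libraries Zc3h12a lay above every WT library at 0 h (32.4 to 38.7 CPM) and 4 h (32.6 to 45.9 CPM). At 1 h (128 to 177 CPM) and 2 h (108 to 174 CPM) the DKO and WT libraries overlapped. The deleted exons are not given in the labels, and reads outside them do not check a deletion.

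Restimulation of WT cells produced a different time course in each member. Zfp36 made a brief spike: its 4 libraries without restimulation held 15.9, 23.2, 37.8 and 20.4 CPM, and after 1 h they held 304, 218, 169 and 211. After 2 h the values were 7.37, 16.5, 10.6 and 10.7 CPM, and after 4 h they were 7.31, 7.25, 4.56 and 5.57. Every library at 1 h lay above every library at the other times, and the libraries at 4 h lay below those at 0 h. On the log2 scale Zfp36 rose by 3.25 ± 0.27 (SE, 9.5-fold) from 0 to 1 h, with a limma adjusted p of 6.3e-15 (Benjamini-Hochberg over all genes tested, as for every adjusted p below). In this comparison 31.1% of the tested genes were called at an adjusted p under 0.05, 60.1% of them higher, a share that was 75.7%, 53% and 36.3% with the deposited, median-of-ratios and upper-quartile scalings. From 1 to 2 h Zfp36 fell by 4.33 ± 0.27 (20.1-fold lower, adjusted p 2.1e-18, 35.5% of genes called), and only 5 of 16140 genes had a larger absolute change in that step. It ended below its starting level, by -1.08 ± 0.27 at 2 h (adjusted p 0.00053, 52% called) with overlapping libraries and by -1.91 ± 0.27 at 4 h (adjusted p 1.8e-08, 51.7% called). The further fall from 2 to 4 h was -0.83 ± 0.27 (adjusted p 0.015, 28.4% called), a call that was lost with upper-quartile scaling (-0.63, adjusted p 0.067), with voom (-0.82, adjusted p 0.078) and without WT library 2 at 2 h (-0.63, adjusted p 0.098) or WT library 3 at 4 h (-0.69, adjusted p 0.070).

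Zfp36l1, which encodes the relative also called BRF1 or TIS11b, rose as steeply at first but went on rising. Its WT libraries without restimulation held 42.8, 46.9, 45.9 and 48.7 CPM, and after 1 h they held 429, 559, 443 and 425. The 2 h libraries reached 637, 763, 842 and 863 CPM, and those of 4 h were back to 161, 157, 183 and 187. The 4 times did not overlap in any pair. The rise from 0 to 1 h was 3.32 ± 0.15 (9.99-fold, adjusted p 4.7e-26) and that from 0 to 2 h was 4.06 ± 0.15 (16.7-fold, adjusted p 2.9e-30). The step from 1 to 2 h was 0.74 ± 0.15 (adjusted p 5.7e-05), and the fall from 2 to 4 h was -2.17 ± 0.15 (adjusted p 1.6e-17). At 4 h Zfp36l1 still stood 1.89 ± 0.15 (3.72-fold) above its 0 h level (adjusted p 1.7e-16).

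Zfp36l2, the relative also called BRF2 or TIS11d, had the highest per-length level of the family in unstimulated cells and the smallest rise. Its unstimulated WT libraries held 90.5, 96.3, 141 and 91.6 CPM, and the 1 h libraries 267, 182, 229 and 236. The 2 h libraries held 56.1, 95.1, 108 and 67.4 CPM, and the 4 h libraries 42.6, 41.0, 49.6 and 33.3. The 1 h libraries lay above all others and the 4 h libraries below all others, while those at 0 and 2 h overlapped. Zfp36l2 rose by 1.13 ± 0.22 (2.2-fold) at 1 h (adjusted p 2.9e-05), then fell by 1.52 ± 0.22 from 1 to 2 h (adjusted p 8.8e-08) and by 0.93 ± 0.22 from 2 to 4 h (adjusted p 0.00062). Against 0 h it was -0.39 ± 0.22 at 2 h (adjusted p 0.14) and -1.32 ± 0.22 at 4 h (2.5-fold lower, adjusted p 6.5e-07). The 2 h difference from 0 h was called with upper-quartile scaling (-0.59, adjusted p 0.013) and without WT library 3 at 2 h (-0.53).

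**Figure D1:**
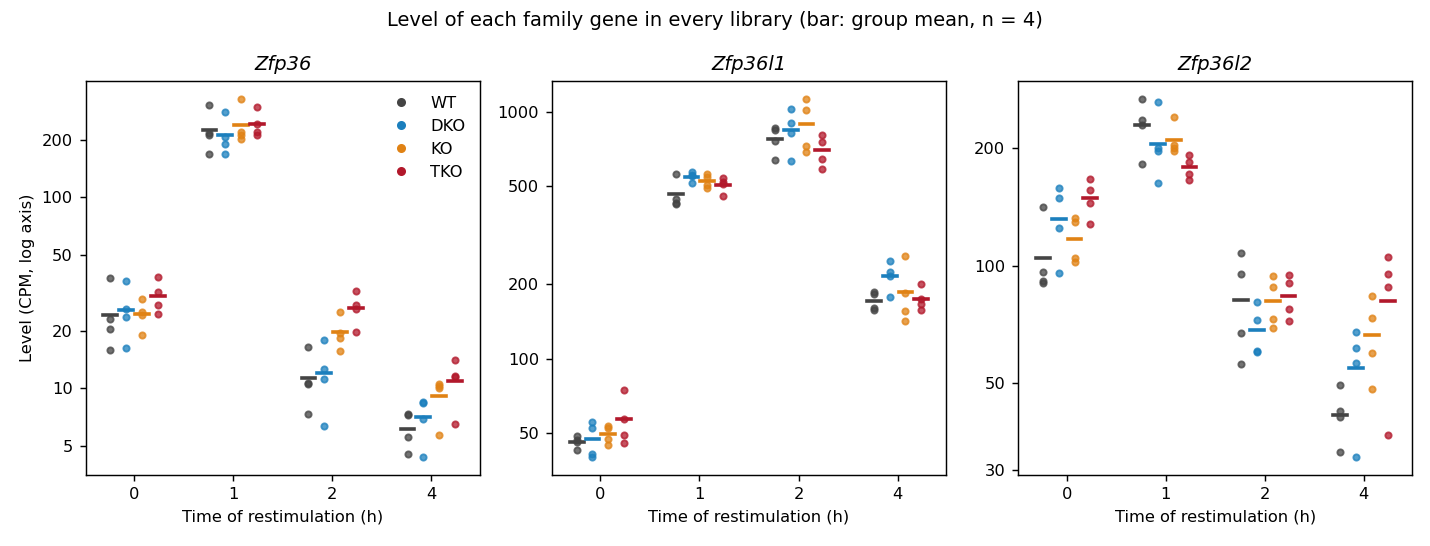
Level of Zfp36, Zfp36l1 and Zfp36l2 in each of the 64 libraries (CPM, log axis) against time of restimulation, coloured by genotype, with a bar at each group mean (n = 4). In WT cells Zfp36 peaks at 1 h (169 to 304 CPM) and Zfp36l1 at 2 h (637 to 863 CPM), and the highest Zfp36l2 values are at 1 h (182 to 267 CPM).

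To compare the members with one another, levels were divided by the merged exon length (3470 bases for Zfp36, 2990 for Zfp36l1 and 3530 for Zfp36l2). In WT cells at 0 h the per-length order was Zfp36l2 at 29.7 ± 6.87 RPKM (CPM divided by the length in kilobases, SD, n = 4), Zfp36l1 at 15.4 ± 0.836 and Zfp36 at 7.01 ± 2.72, with no overlap between neighbours. At 1 h Zfp36l1 led at 155 ± 21.3 RPKM, and Zfp36 (65.0 ± 16.4) and Zfp36l2 (64.7 ± 9.95) overlapped. At 2 h the order was Zfp36l1 at 260 ± 34.2, Zfp36l2 at 23.1 ± 6.76 and Zfp36 at 3.26 ± 1.1 RPKM, again without overlap. At 4 h it was the same order without overlap, at 57.5 ± 5.19, 11.8 ± 1.9 and 1.78 ± 0.388 RPKM. As a share of the summed per-length level, Zfp36l2 held 56.7% ± 2.89 at 0 h, while Zfp36l1 made up 54.5% ± 6.44 after 1 h, 90.8% ± 1.97 after 2 h and 80.8% ± 2.8 after 4 h. The share of Zfp36 was 22.7% ± 4.28 after 1 h and 1.14% ± 0.35 after 2 h. The summed level was 52.1 ± 9.62 RPKM before restimulation, 285 ± 22.5 after 1 h, 286 ± 38.7 after 2 h and 71.1 ± 4.94 after 4 h, and the means of the sum at 1 and 2 h lay within an SD of each other while the shares differed. With the length of the longest Zfp36 transcript (2790 bases) in place of merged exons, the WT Zfp36 level at 1 h was 80.9 ± 20.4 RPKM and its share 26.7% ± 4.75, and its libraries (60.6 to 109 RPKM) still overlapped those of Zfp36l2 (51.5 to 75.6). The merged exons of Zfp36 covered its whole annotated span of 3470 bases, and its RefSeq start lies inside that span. A transcript from that start would be shorter and the Zfp36 level per length higher, and that length was not used. The orders, overlaps, shares and sums given here hold for the lengths used.

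**Figure D2:**
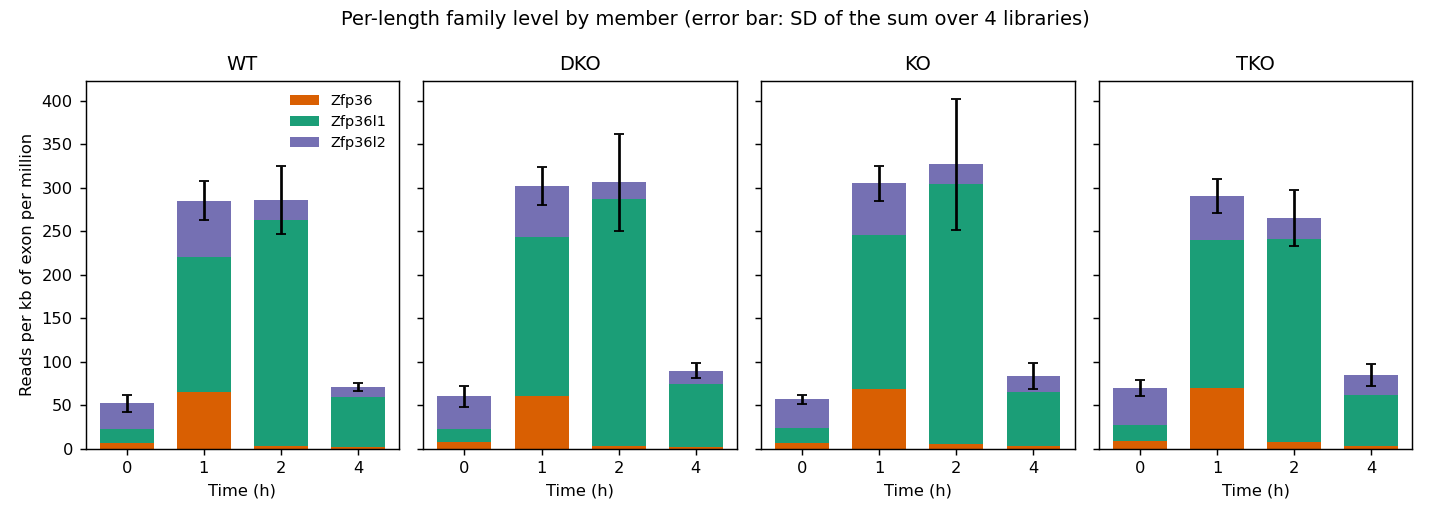
Summed per-length level of the family (RPKM over merged exons) by time in each genotype, with each coloured segment the group mean of a member and the error bar the SD of the sum over 4 libraries. Zfp36l2 is the largest segment at 0 h and Zfp36l1 at 1, 2 and 4 h in all 4 genotypes, as in WT cells where Zfp36l1 held 90.8% at 2 h.

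In the knockout cells Zfp36 and Zfp36l1 also rose at 1 h, and Zfp36l2 did so in DKO and KO cells. Zfp36 rose at 1 h by 3.07 ± 0.27 in DKO, 3.28 ± 0.27 in KO and 2.99 ± 0.27 in TKO cells (adjusted p 4.5e-14, 5e-15 and 2.1e-13), where 32%, 29.3% and 22.4% of genes were called. From 1 to 2 h it changed by -4.19 ± 0.27 in DKO, -3.59 ± 0.27 in KO and -3.21 ± 0.27 in TKO cells (adjusted p 2.8e-18, 7.2e-16 and 5.5e-14), where 37.9%, 37.3% and 32.1% of genes were called. Against 0 h Zfp36 at 2 h was -1.12 ± 0.27 in DKO cells (adjusted p 0.00036), but -0.32 ± 0.27 in KO (adjusted p 0.31) and -0.21 ± 0.27 in TKO cells (adjusted p 0.54). These comparisons called 55.2%, 58.1% and 47.3% of genes, and the KO value was called with the deposited scaling (-0.66, adjusted p 0.026) and upper-quartile scaling (-0.62, adjusted p 0.039). At 4 h Zfp36 was below 0 h in all 3 knockouts, by -1.83, -1.43 and -1.51 in DKO, KO and TKO cells (SE 0.27 each), where 55.2%, 60.7% and 50.4% of genes were called. The step from 2 to 4 h was -0.72, -1.12 and -1.29 (SE 0.27 each, adjusted p 0.04, 0.00088 and 2e-04), where 26.9%, 31.2% and 24.6% of genes were called, and the DKO call was lost under 11 of its alternatives.

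Zfp36l1 rose by 3.18 to 3.54 at 1 h and by 3.64 to 4.16 at 2 h in the 3 knockouts, and stood 1.65 to 2.20 above 0 h at 4 h. All 15 of its time comparisons in these genotypes were called, and the step from 1 to 2 h in TKO cells (0.46 ± 0.15, adjusted p 0.014) lost its call without TKO library 1 at 1 h (0.41, adjusted p 0.052) or TKO library 2 at 2 h (0.38, adjusted p 0.067). Zfp36l2 rose at 1 h by 0.64 ± 0.22 in DKO (adjusted p 0.018) and 0.84 ± 0.22 in KO cells (adjusted p 0.0018), and was 0.27 ± 0.22 in TKO cells (adjusted p 0.43), whose libraries at 0 and 1 h overlapped (128 to 167 and 166 to 192 CPM). The DKO value was not called with the deposited (0.43, adjusted p 0.097) or upper-quartile scaling (0.43, adjusted p 0.091), nor without DKO library 4 at 0 h (0.50, adjusted p 0.10) or at 1 h (0.52, adjusted p 0.085). From 1 to 2 h it changed by -1.57 in DKO, -1.38 in KO and -1.10 in TKO cells (SE 0.22 each). At 2 h it stood below 0 h by -0.93 in DKO and -0.83 in TKO cells, and by -0.53 in KO cells (adjusted p 0.033), a call lost without KO library 2 or 4 at 0 h (-0.47 and -0.48) or KO library 1 or 2 at 2 h (-0.48 and -0.46). The step from 2 to 4 h was -0.37, -0.31 and -0.14 in DKO, KO and TKO cells, with no call. By 4 h Zfp36l2 had fallen below 0 h by -1.30 in DKO, -0.84 in KO and -0.97 in TKO cells (SE 0.22 each).

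With TMM scaling no family member passed the test against WT before restimulation or at 1 h, in any of the 3 knockouts. Of the 18 comparisons with WT at 0 and 1 h (3 genes, 3 genotypes, 2 times), limma called 0 at the adjusted threshold, 1 had an unadjusted p under 0.05, and limma voom called 1. That one was Zfp36l2 in TKO cells at 0 h, with 128, 156, 145 and 167 CPM against 90.5, 96.3, 141 and 91.6 in WT cells. The difference was 0.52 ± 0.22 (adjusted p 0.052), and over its alternatives the adjusted p ran from 0.016, without WT library 3, to 0.14. It also passed without TKO library 1 (0.59, adjusted p 0.048). With the deposited scaling Zfp36l2 was also called in DKO cells at 0 h (0.61, adjusted p 0.028, compared with 0.33 and an adjusted p of 0.40 under TMM) and in TKO cells at 1 h (-0.58, adjusted p 0.026, compared with -0.34 and an adjusted p of 0.23). Across all genes, DKO, KO and TKO cells differed from WT in 7.65%, 1.33% and 37.5% of genes at 0 h and in 8.22%, 2.16% and 31.6% at 1 h. The 95% intervals at 1 h ran from -0.63 to 0.66 over the 3 knockouts for Zfp36, from -0.17 to 0.54 for Zfp36l1 and from -0.78 to 0.32 for Zfp36l2, and differences inside these bounds were not excluded.

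At 2 h Zfp36 was higher than in WT cells where Regnase-1 and Roquin were both lost. The TKO libraries held 32.4, 19.7, 27.3 and 26.1 CPM, the KO libraries 19.6, 18.4, 25.2 and 15.7, the DKO libraries 12.6, 18.0, 11.2 and 6.39, and the WT libraries 7.37, 16.5, 10.6 and 10.7. Every TKO library lay above every WT and every DKO library, the KO libraries overlapped WT by 1 library, and the range of the DKO libraries enclosed that of WT. The difference from WT was 1.25 ± 0.27 in TKO cells (2.38-fold, adjusted p 0.00023), 0.83 ± 0.27 in KO cells (adjusted p 0.051) and 0.06 ± 0.27 in DKO cells (adjusted p 0.93), where 36.7%, 5.95% and 9.49% of genes were called. The TKO call held under all of its alternatives, with values of 1.07 to 1.45 when 1 library was left out. The KO difference passed the threshold without WT library 2 (1.03, adjusted p 0.023) and without KO library 4 (0.94, adjusted p 0.045). Against DKO cells the TKO level was 1.19 ± 0.27 higher (2.28-fold, adjusted p 0.0029, 6.75% of genes called), and against KO cells the difference was 0.41 ± 0.27 (adjusted p 0.34, 11.5% called). Zfp36l1 and Zfp36l2 differed from WT at 2 h by -0.21 to 0.18 over the 3 knockouts, with no call.

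At 4 h 3 of the 9 differences from WT were called, at overlapping levels. Zfp36l2 held 36.8, 95.4, 105 and 88.3 CPM in TKO, 48.4, 73.6, 59.9 and 83.7 in KO, 61.7, 56.5, 67.7 and 32.5 in DKO and 42.6, 41.0, 49.6 and 33.3 in WT libraries. In the TKO and in the KO group all but library 1 lay above every WT library, and TKO library 1 lay below 3 of the 4 WT libraries. The Zfp36l2 difference was 0.87 ± 0.22 in TKO (1.83-fold, adjusted p 0.0011) and 0.66 ± 0.22 in KO cells (adjusted p 0.019), and 0.35 ± 0.22 in DKO cells (adjusted p 0.37). Zfp36 held 6.49, 14.1, 11.7 and 11.4 CPM in TKO libraries against 7.31, 7.25, 4.56 and 5.57 in WT, a difference of 0.78 ± 0.27 (adjusted p 0.016), and its differences were 0.55 ± 0.27 in KO (adjusted p 0.10) and 0.17 ± 0.27 in DKO cells. Zfp36l1 differed by 0.02 to 0.33. At this time 44%, 33.6% and 5.43% of genes were called in TKO, KO and DKO cells, and the median of all genes was itself shifted by 0.20 in TKO and 0.22 in KO cells, and the share of called genes that were higher moved with the scaling, from 62.6% to 32.8 to 45.5% in TKO and from 65.4% to 19.3 to 36.1% in KO cells. Under the 3 other scalings the Zfp36l2 difference in TKO cells stayed called at 0.59 or more (adjusted p up to 0.021), while the KO call (0.37 to 0.50, adjusted p 0.091 to 0.26) and the Zfp36 call in TKO cells (0.51 to 0.62, adjusted p 0.068 to 0.15) were lost. The KO call of Zfp36l2 was also lost without WT library 4 (0.55, adjusted p 0.065), KO library 2 (0.60) or KO library 4 (0.53, adjusted p 0.076). The TKO call of Zfp36 was lost with voom (0.80, adjusted p 0.058) and without WT library 3 (0.65, adjusted p 0.067) or TKO library 2 (0.64, adjusted p 0.070), and Zfp36 in KO cells passed without KO library 1 (0.76, adjusted p 0.046). The TKO call of Zfp36l2 was lost when the fit held only the groups compared (adjusted p 0.057), and without TKO library 1 the difference was 1.22.

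**Figure D3:**
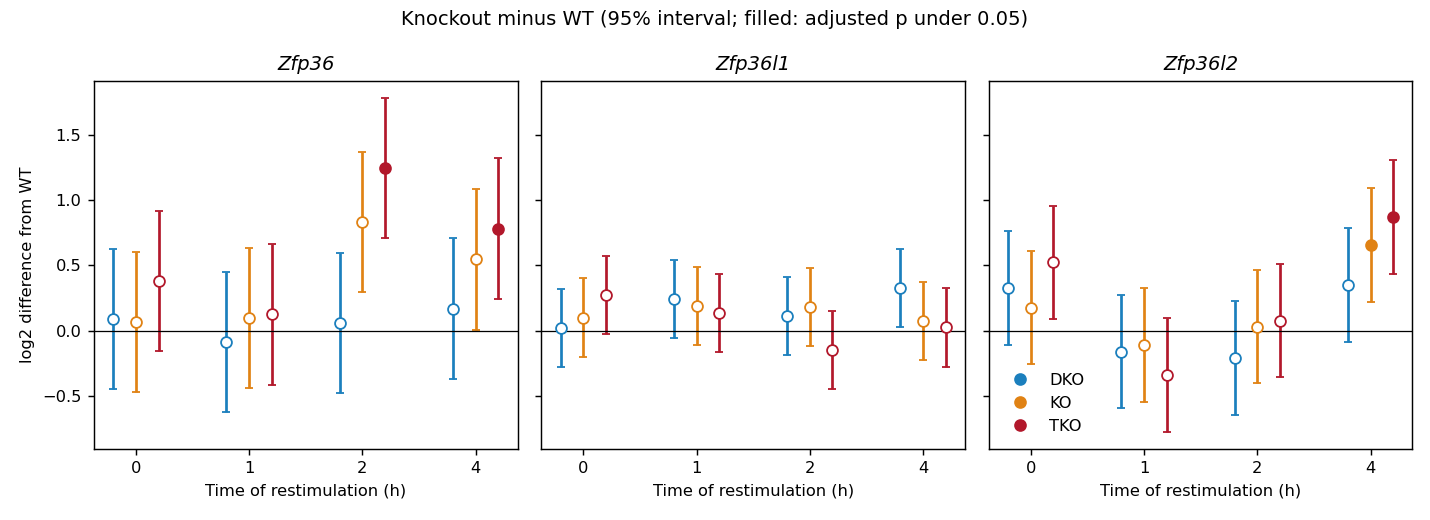
Log2 difference of each knockout from WT at 0, 1, 2 and 4 h for the 3 genes, with 95% intervals from the limma fit and filled points at an adjusted p under 0.05. The filled points are Zfp36 in TKO cells at 2 h (1.25) and 4 h (0.78) and Zfp36l2 at 4 h in KO (0.66) and TKO (0.87) cells.

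Markers of other cells also differed between these groups. At 4 h the summed myeloid markers were 8.50 to 11.8 CPM in WT, 1.55 to 4.92 in KO and 2.24 to 3.27 in TKO libraries, and both myeloid genes tested were lower in KO and TKO cells. At 2 h they were 4.16 to 9.58 CPM in WT and 2.14 to 3.80 in TKO libraries, where B cell markers were 0.287 to 0.737 and 1.15 to 2.14 CPM. CD8 markers at 4 h summed to 4.91 to 17.4 CPM in WT, 13.9 to 51.4 in KO and 21.2 to 30.1 in TKO libraries. CD4 T cell markers at 4 h were 541 to 589 CPM in WT, 638 to 782 in KO and 721 to 822 in TKO libraries. In KO and in TKO cells 4 of 7 were higher. At this time 33.6% of all genes were called in KO and 44% in TKO cells, with medians shifted by 0.22 and 0.20. The part that these cell types played in the results was not tested. In bulk RNA fewer cells of a type and less RNA per cell cannot be told apart.

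Whether the response itself differed between genotypes was tested directly. Of 27 differences between a knockout and WT in the change from 0 h (3 genes, 3 genotypes, 3 times), limma called 0 at the adjusted threshold, 3 had an unadjusted p under 0.05 and voom called 0. The 3 were Zfp36 from 0 to 2 h in KO (0.77 ± 0.38, adjusted p 0.85) and TKO cells (0.87 ± 0.38, adjusted p 0.21), and Zfp36l2 from 0 to 1 h in TKO cells (-0.87 ± 0.31, adjusted p 0.23). The last was called with the deposited scaling (-1.17, adjusted p 0.0056), under which the median of all genes shifted by -0.31. Over all genes these tests called 0.105%, 0.316% and 0.824% for DKO at 1, 2 and 4 h, 0.0248%, 0.204% and 2.19% for KO, and 0.743%, 4.53% and 6.63% for TKO cells. Single libraries moved some of these counts: that for KO cells at 4 h (354) ran from 100 without WT library 3 at 0 h to 1089 without WT library 4 at 0 h, and that for DKO cells at 4 h (133) from 58 without DKO library 3 to 354 without WT library 4, both at 0 h. In a comparison chosen after the values were seen, the fall of Zfp36 from 1 to 2 h was smaller in TKO than in WT cells by 1.12 ± 0.38 (adjusted p 0.19, 0.644% of genes called). This step difference passed with the deposited scaling (1.27, adjusted p 0.05 after rounding), and the corresponding values were 0.74 ± 0.38 for KO and 0.14 ± 0.38 for DKO cells. The higher Zfp36 level in TKO cells at 2 h thus passed as a difference in level, while the difference in its change from 0 h did not, with adjusted p of 0.11 to 0.42 over the alternatives.

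The combined loss was also compared with the sum of the separate losses on the log2 scale, where a sum stands for a product of fold changes. Zc3h12a itself was higher in DKO than in WT libraries at 0 and 4 h. The part that this played here and in comparisons of TKO with DKO cells was not tested. Of 12 such differences limma called 0, voom called 0, and 1 had an unadjusted p under 0.05 (Zfp36l1 at 2 h, -0.44 ± 0.21, adjusted p 0.72). The share of all genes called was 0.731%, 0.26%, 0.155% and 0.167% at 0, 1, 2 and 4 h, and the count at 0 h (118) ran from 45 without TKO library 4 to 576 without WT library 4. For Zfp36 at 2 h the difference from additivity was 0.36 with a 95% interval of -0.41 to 1.12. Beyond the 2 h difference from DKO cells, none of the 23 other comparisons of TKO with DKO or KO cells was called for the 3 genes. Zfp36l2 in TKO against DKO cells at 4 h (0.52, adjusted p 0.10) passed without TKO library 1 (0.87, adjusted p 0.003). Zfp36l1 in the same comparison (-0.30, adjusted p 0.18) passed with the deposited (-0.46, adjusted p 0.035) and upper-quartile scalings (-0.46, adjusted p 0.038). Those comparisons called 14.8%, 4.14% and 12.4% of genes against DKO at 0, 1 and 4 h and 20.3%, 9.65% and 2.61% against KO cells, and 4 of the 23 had an unadjusted p under 0.05.

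The proteins that work with the family were read from lists written with earlier results of these data known. Among 18 deadenylase subunits and adaptors, 8 rose and 0 fell in WT cells at 1 h, with a list median of 0.25 against -0.09 for all genes, of which 31.1% were called in either direction. The largest changes were in adaptors that bind the deadenylase: the antiproliferative genes Btg2 rose by 2.79 ± 0.29 (10.8 to 34.2 CPM at 0 h, 103 to 179 at 1 h), Btg1 by 1.52 ± 0.22 and Tob2 by 1.45 ± 0.25. The catalytic subunit gene Cnot7 rose by 0.66 ± 0.12. Across the other scalings, which moved the median of all genes at 1 h between -0.28 and 0.05, the named calls of this list held while its count of rises ran from 4, with 1 fall, to 12. Among 12 decapping and translation repression partners 3 rose, led by Patl1 (0.74 ± 0.08) and the cap-binding Eif4e2 (0.53 ± 0.08), and 2 fell (5 of 12 called, against 31.1% of all genes), the decapping cofactor gene Dcp1b (-0.46 ± 0.14) and the exonuclease gene Xrn1 (-0.41 ± 0.15), with a list median of 0.07. The list median changed sign with upper-quartile scaling (-0.12, 2 rises and 3 falls), and both named falls lost their call with the deposited scaling (-0.31, adjusted p 0.089, and -0.27, adjusted p 0.18).

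Of 16 kinases, phosphatases and 14-3-3 proteins that act on the family 8 rose and 0 fell at 1 h, with a list median of 0.20, where 31.1% of all genes were called. Map2k3, which encodes a kinase that activates p38, rose by 3.64 ± 0.18 (11.7 to 22.2 CPM at 0 h, 179 to 230 at 1 h), Mapkapk3 by 2.40 ± 0.22, and Mapkapk2, whose product is known to phosphorylate tristetraprolin, by 2.13 ± 0.25 (65.3 to 74.3 and 257 to 373 CPM). Ppp2ca, a catalytic subunit of the phosphatase PP2A, rose by 0.71 ± 0.10. Of 8 other AU-rich element binding proteins 6 rose, among them Tial1 (1.22 ± 0.11), Hnrnpab (0.69 ± 0.20) and Hnrnpdl (0.66 ± 0.10), and Tia1 fell by 0.58 ± 0.12, with a list median of 0.42. With upper-quartile scaling 7 of the regulators rose and 1 fell (list median 0.01) and 4 of the binding proteins rose, and the named calls of both lists held under all 3 other scalings.

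Of 24 known AU-rich target mRNAs 21 could be tested, and 17 of these rose and 0 fell at 1 h (list median 3.08), where 31.1% of all genes were called and their median was -0.09. The cytokine gene Il2 lay between 0.381 and 1.62 CPM at 0 h and between 327 and 836 at 1 h. Il3 lay at up to 0.324 CPM at 0 h and between 75.3 and 112 at 1 h, the chemokine gene Ccl3 at up to 0.811 and between 81.3 and 206, and Csf2 (GM-CSF) between 0.221 and 0.761 and between 105 and 212. Of 18 immediate early genes, 4 of which are also on the target list, 17 rose and 0 fell (list median 3.06), led by Egr3, Egr2, Nr4a1 and Atf3. Under the 3 other scalings the targets kept 17 rises and the immediate early genes 16 or 17. Nr4a1 reached 2110 to 2650 CPM from 3.24 to 6.73. The rises of Zfp36 and Zfp36l1 at 1 h lay near the medians of these 2 lists.

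**Figure D4:**
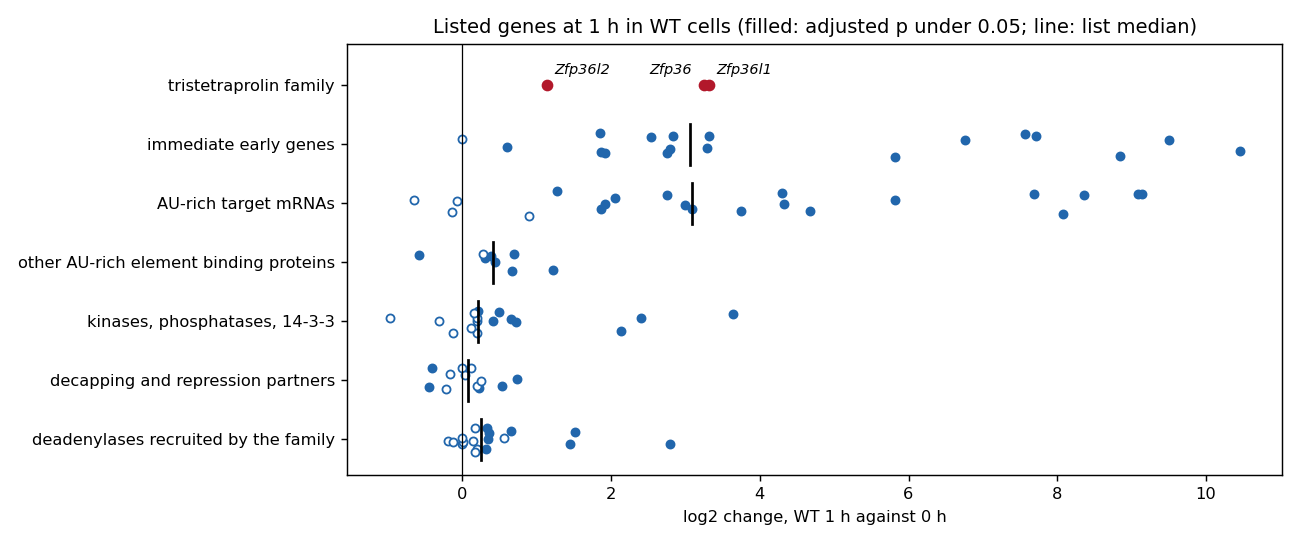
Log2 change from 0 to 1 h in WT cells for every tested gene of 6 lists and for the 3 family members, with filled points at an adjusted p under 0.05 and a line at each list median. Zfp36 (3.25) and Zfp36l1 (3.32) lie close to the medians of the AU-rich targets (3.08) and the immediate early genes (3.06), and Zfp36l2 (1.13) lies below both.

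In unstimulated TKO cells, where 37.5% of all genes were called, members of all 6 lists differed from WT. With TMM scaling only the decapping partners were called at a larger share than all genes. Here 4 of 18 deadenylase genes were higher and 0 lower, with Btg1 at 0.62 ± 0.22 and Cnot3 at 0.52 ± 0.11. Of the 12 decapping partners 7 were higher, with Gigyf1 at 0.51 ± 0.19 and Gigyf2 at 0.38 ± 0.09, and Dcp1b was lower at -0.59 ± 0.14. Map2k3 (1.03 ± 0.18) and Mapkapk2 (0.75 ± 0.25) were the 2 of 16 regulators called. This list had 6 higher genes with the deposited scaling, 2 higher and 1 lower with median-of-ratios scaling and 2 higher and 2 lower with upper-quartile scaling. Of the 8 other AU-rich element binding proteins Tia1 (0.38 ± 0.12) and Elavl1 (0.28 ± 0.10) were higher and Hnrnpd lower (-0.25 ± 0.10). Of the 21 tested targets 5 were higher and 1 lower. They were led by the cytokine gene Il10, at 3.24 to 15.2 CPM in TKO against 0.127 to 0.649 in WT libraries. Of the 18 immediate early genes 5 were higher, with Atf3 at 2.64 ± 0.49 and Nr4a1 at 1.75 ± 0.28. The smaller differences depended on the scaling. With median-of-ratios and upper-quartile scaling 1 decapping partner was higher and 1 lower, 3 and 1 deadenylase genes were higher (with 1 lower under the latter), and Gigyf1 lost its call, as did Elavl1. Btg1 and Tia1 lost theirs with upper-quartile scaling, and Hnrnpd with the deposited one. Map2k3, Mapkapk2, Il10, Nr4a1, Atf3, Cnot3, Gigyf2 and Dcp1b were called under all 4 scalings. In DKO and KO cells, where 7.65% and 1.33% of all genes were called, the 6 lists held 3 calls at 0 h: Hnrnpd was lower (-0.40 ± 0.10) and Junb higher (0.94 ± 0.24) in DKO cells, and Nr4a1 was higher in KO cells (1.31 ± 0.28). Under the deposited scaling, which shifted the median of all genes by 0.23 in DKO and 0.22 in KO cells, all 6 lists held higher genes, such as 9 decapping partners in DKO cells, and Hnrnpd in DKO cells lost its call.

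The pattern over the 16 group means of log2(CPM + 1) was also compared with 9828 tested genes that reached 10 CPM in at least 1 group, as a description over groups that share their scaling. Closest to Zfp36 were Sugt1 (Pearson r 0.987), Ppard (0.984), Pcsk7 (0.968), Rtn3 (0.967) and Zscan29 (0.964). Their WT amplitudes were smaller, with Ppard at 33.1, 114 and 30.2 CPM at 0, 1 and 2 h. Closest to Zfp36l1 were Mex3c (0.994), Itpkc (0.992), Hectd2 (0.990), Tbx21 (0.988), which encodes the Th1 factor T-bet, and Mlxip (0.987). Tbx21 stood at 13.1, 121, 180 and 55.9 CPM in WT cells. Closest to Zfp36l2 were Cpeb1 (0.982), Fam168b (0.976), Pde1b (0.970), Tob1 (0.968) and Ap5m1 (0.968). Tob1, whose product also recruits the deadenylase, stood at 13.3, 19.0, 10.7 and 6.91 CPM in WT cells. Between the members r over the 16 groups was 0.93 for Zfp36 with Zfp36l2, 0.25 for Zfp36 with Zfp36l1 and 0.02 for Zfp36l1 with Zfp36l2.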

How the data were processed

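Total RNA of 64 libraries (16 groups of 4) was sequenced after NuGEN library preparation, per the labels' protocols. Per the file headers, the deposited table gives a list of 4 normalized count values and a mean signal per gene and group. GRCm38 is named in the submitters' processing notes, while aligner, counter and strand setting were not given in the sources used here. The values came out as whole reads after division by the worth of 1 read (100% of low values, tolerance 0.1), and the deposited means differed from the list means by at most 0.049%. A library is named by its place in its list, since the lists carry no replicate number.

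Values were rescaled by TMM factors (0.772 to 1.235). Genes were kept with 1.3 CPM (10 reads at the median depth) in at least 4 libraries and 15 reads in all, which left 16140. The log2(value + 1) values were fitted with limma 3.58.1 (trend, robust) in R 4.3.3, with 1 mean per group and 48 residual degrees of freedom. Genes were called at a Benjamini-Hochberg adjusted p under 0.05 over all genes tested. A fold change here is one of log2(value + 1) and so understates how far low genes moved. Levels are CPM of TMM-adjusted library sizes. The fits were tested on simulated data. Alternatives covered scaling, pseudocount, filter, voom, groups fitted, a replicate block and leaving out each library, and list counts under each scaling and a comparison of the 1 to 2 h step were added after the data were seen. Named were the members, the 3 targeted genes, up to 4 called genes per list with the largest change, of which some are given only by level, and the 5 nearest patterns per member. Genes named at other points were chosen after their values were seen. The members and lists were chosen with earlier results of these data known. Sequences came from GENCODE M21 transcripts and the RefSeq promoter table, in which 2 of the 3 members matched.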

Additional observations from a re-analysis of the deposited data

Results flagged for a closer look

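In 4 of 48 gene-by-group sets 1 library stood apart from the other 3, with a gap to its neighbour of more than 0.829 of the whole range, and chance flags about 1 in 20 such sets. Zfp36 in KO cells at 1 h was 328 CPM in library 1 against 203 to 219 in the others. Zfp36 in KO cells at 4 h was 5.7 CPM in library 1 (59 reads) against 10.1 to 10.6. Zfp36l1 in WT cells at 1 h was 559 CPM in library 2 against 425 to 443. Zfp36l2 in WT cells at 0 h was 141 CPM in library 3 against 90.5 to 96.3.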

How the results depend on the processing

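Over 168 results and 3240 alternative values, 3181 stayed on the same side of the threshold, 38 lost a call, 21 gained one and 0 reversed. A change of sign counted as reversed only where the main or the alternative value was called. Uncalled differences could change sign, such as Zfp36 in DKO against WT cells at 0 h (-0.098 to 0.367). With the deposited scaling Zfp36l2 passed in DKO (0.61) and TKO cells (0.58) at 0 h and in TKO cells at 1 h (-0.58), while Zfp36l2 in KO (0.38) and Zfp36 in TKO cells (0.53) at 4 h no longer passed. Those 2 results at 4 h also failed with median-of-ratios scaling (0.50 and 0.62) and upper-quartile scaling (0.37 and 0.51), and with the latter Zfp36l2 in WT cells at 2 h against 0 h passed (-0.59). Zfp36l2 in TKO cells at 0 h passed with a pseudocount of 5 (0.52), with voom (0.53) and with only the groups compared (0.52). With voom Zfp36 in TKO cells at 4 h failed (0.80), and with only the groups compared Zfp36l2 in TKO cells at 4 h failed (0.87). The cause of these changes was not tested. With the place in the list as a replicate block, Zfp36 in KO cells at 2 h passed (0.83, adjusted p 0.047) and no other call on the members changed. The median correlation of deviations was 0.007 for the same place in other groups (range -0.496 to 0.711) and -0.016 for other places (-0.633 to 0.76). A median over all pairs cannot exclude that some libraries were paired.

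When 1 library was left out, Zfp36l2 in TKO cells at 0 h ran from 0.46 to 0.67, Zfp36 in KO cells at 2 h from 0.65 to 1.03, Zfp36l2 in WT cells at 2 h against 0 h from -0.53 to -0.22, Zfp36 in TKO cells at 4 h from 0.64 to 1.01, Zfp36l2 in KO cells at 4 h from 0.53 to 0.80 and Zfp36 in KO cells at 4 h from 0.41 to 0.76. The count of all genes called against WT moved from 1235 to 4159 (DKO, 0 h) and from 215 to 2469 (KO, 0 h) with the deposited scaling, and from 5415 to 2881, 3096 and 2954 (KO, 4 h) and from 877 to 545, 576 and 559 (DKO, 4 h) with the deposited, median-of-ratios and upper-quartile scalings. With only the groups compared, the counts for DKO, KO and TKO cells at 0 h were 389, 94 and 3703 (TKO 6056 otherwise), those for DKO and KO cells at 1 h 719 and 216 (1327 and 349), those at 2 h 441 and 365 (1531 and 961) and that for DKO cells at 4 h 1545. The count of response differences for TKO cells from 0 to 1 h moved from 120 to 2264 with the deposited scaling. The edgeR and DESeq2 alternatives were not run, and voom on the recovered reads was the only count-based fit. Depth limits Zfp36 most, at 39 to 3105 reads per library.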

Other observations

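Within groups, deviations from the group mean of log2 level had a correlation of 0.53 between Zfp36 and Zfp36l2 over the 64 libraries, against -0.07 for Zfp36 with Zfp36l1 and 0.06 for Zfp36l1 with Zfp36l2. These are descriptions over libraries that share their scaling. The leading component of the deviations of all genes held 27.4% of their variance, and its correlation with the deviations of Zfp36, Zfp36l1 and Zfp36l2 was 0.05, 0.19 and 0.12 in size.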
